A study of Homo sapiens with 21 samples.

Results

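The genes described here are 40 genes of mitosis and of the spindle checkpoint: the cyclins and the kinase that drive cells into mitosis, the mitotic kinases, the chromosomal passenger complex, the checkpoint proteins, the anaphase machinery, kinetochore and centromere subunits, proteins of the spindle and of cytokinesis, and 3 genes of transcription and chromosome structure. Kinesin genes were left out, other than the kinetochore motor CENPE, which is a member. The members were taken by symbol through their Ensembl identifiers, and all 40 were found once in each of 2 tables of 60668 genes. They were followed in HCC1806, an established human triple-negative breast cancer cell line grown as an adherent culture and scraped off near confluence. The 21 libraries are of polyA-selected RNA and form 7 groups of 3. The first table holds 3xCTL, the control; 3xSR, labelled as overexpressing the splicing factors SRSF2, SRSF3 and SRSF7 together; and MYC-OE, labelled as overexpressing the transcription factor MYC. The second holds 1xCtrl, a single plasmid control, and SRSF2-OE, SRSF3-OE and SRSF7-OE, labelled as overexpressing 1 factor each. Every group is the same cell line with no other treatment named. The vectors, promoters and clones are not given in the sources used here, nor is whether the replicates came from separate cultures, so p-values measure the spread between these libraries.

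Entry into mitosis is driven by CDK1 bound to cyclins A and B. During mitosis the kinetochore, a protein assembly on each centromere, binds spindle microtubules. The spindle checkpoint delays anaphase by holding back CDC20, the activator of the anaphase-promoting complex, until all kinetochores are attached. Many of these genes are transcribed together in G2 and M phase under the DREAM and MuvB complexes with B-MYB and FOXM1, through a promoter element called the cell cycle homology region, often near CCAAT boxes bound by NF-Y. SR proteins such as SRSF2, SRSF3 and SRSF7 act in pre-mRNA splicing. In bulk libraries a change in the share of cells in G2 and M phase and a change in RNA per cell cannot be told apart.

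Levels are in CPM, the usual depth-scaled count, taken over the TMM-scaled library size, and changes are log2 fold changes from edgeR's quasi-likelihood test with Benjamini-Hochberg adjustment over all genes tested, called at an adjusted p under 0.05, two-sided. Total counts ran from 143269192 to 303323552 per library, and no member had fewer than 1344 counts in any library. Mitochondrial genes took 10.9% to 12.2% of counts in 3xCTL, 10.5% to 12.3% in 3xSR and 9.36% to 9.75% in MYC-OE, and 10.3% to 12.8% in 1xCtrl, 11.8% to 13.6% in SRSF2-OE, 10.2% to 12.6% in SRSF3-OE and 9.23% to 10.1% in SRSF7-OE. MYC-OE and SRSF7-OE thus lay wholly below their controls. The targeted genes did not all follow the labels. SRSF2 had a log2 fold change of -0.16 in the libraries labelled SRSF2-OE (edgeR adjusted p = 0.098) and -0.06 in those labelled 3xSR (adjusted p = 0.389), so these 2 groups are named by what the libraries are labelled, and whether they overexpress SRSF2 cannot be told from these gene counts. SRSF3 rose by 0.31 in 3xSR and by 0.49 in SRSF3-OE. SRSF7 rose by 0.44 in 3xSR and by 0.26 in SRSF7-OE. MYC rose by 0.90 in MYC-OE and by 0.75 in 3xSR, and by 0.26 and 0.27 in SRSF3-OE and SRSF7-OE. The 6 epithelial markers summed to between 3422 and 5859 CPM per library. The sum lay wholly above 3xCTL (4608 to 5471) in MYC-OE (5694 to 5859), wholly below it in 3xSR (4294 to 4503), and wholly below 1xCtrl (4095 to 5048) in SRSF3-OE (3422 to 3734). The 6 markers did not all move with the sum. In MYC-OE mean KRT19 rose from 702 to 1176 CPM, and EPCAM, KRT8 and KRT18 rose too. Mean KRT5 (2390 to 2339 CPM) and CDH1 (443 to 438 CPM) did not. Mean EPCAM rose in 3xSR (561 to 594 CPM) and SRSF3-OE (630 to 659 CPM), where the other markers had lower means. The 2 hormone receptor markers summed to between 6.49 and 11.5 CPM, the 4 blood markers to between 0.869 and 2.79, the 6 fibroblast markers to between 15.1 and 49.4 and the 3 endothelial markers to between 0.137 and 1.28. The fibroblast sum was higher in the controls (47.2 to 49.4 CPM in 3xCTL against 22.8 to 25.6 in 3xSR and 19.1 to 19.2 in MYC-OE, and 28.2 to 32.8 in 1xCtrl against 15.1 to 23.8 in the single lines). It came mostly from LUM and COL1A1, while COL1A2, PDGFRA, PDGFRB and DCN stayed under 1 CPM in every library. The part of these markers and of the mitochondrial share in the results was not tested.

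In each control group, replicates 2 and 3 stood on opposite sides over the members. In 3xCTL replicate 2, 28 of the 40 members were at the highest of the 3 levels, with a median of 0.18 on the log2 scale above the other 2 replicates. In 1xCtrl replicate 2, 30 were at the lowest, with a median of -0.18. Replicate 3 of each stood on the other side, at -0.15 in 3xCTL (28 members lowest) and 0.14 in 1xCtrl (29 highest). The libraries of the other 5 groups lay between -0.10 and 0.09. Counts as uneven were also seen there, such as 32 lowest in SRSF2-OE replicate 3 and 30 highest in SRSF3-OE replicate 1. Replicate 2 of each control also differed in base composition. The median deviation of genes in the most GC-rich of 5 equal bins of transcript GC content, less that of genes in the most GC-poor bin, was -0.29 in 3xCTL replicate 2 against 0.24 and 0.23 in replicates 1 and 3, and 0.60 in 1xCtrl replicate 2 against -0.19 and -0.38. It also differed between lines: it was -0.36 to -0.16 in the 3xSR libraries and -0.32 to -0.15 in SRSF3-OE, and 0.16 to 0.29 in MYC-OE. The members' transcripts have a median GC content of 43.2%, against 48.1% over the 14431 genes of at least 1 CPM in the first table. Counts of called members are therefore also given without replicate 2 or 3 of each control and with each library's GC trend removed.

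The promoters of 6 members are shown because these genes carry the results below: SPC25 and SPC24, 2 partners in 1 complex that moved in opposite directions; CCNB2 and PRC1, the 2 members called higher in some lines and lower in others; and HMMR and CDC20, called higher in several lines. Sequences are from RefSeq on GRCh38.p14 and run from 120 bases before the annotated transcript start to 10 bases after it, on the gene's strand. Capitals mark the cell cycle homology region, searched as TTTGAA and TTCGAA, and the NF-Y box, searched as CCAAT, on both strands, so that TTCAAA and ATTGG are matches too. In HMMR a CCAAT and an ATTGG overlap.
SPC25, chr2:168890421-168890550, minus strand: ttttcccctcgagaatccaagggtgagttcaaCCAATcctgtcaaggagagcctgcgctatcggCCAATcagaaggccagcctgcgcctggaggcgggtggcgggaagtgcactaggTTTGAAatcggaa
SPC24, chr19:11155773-11155902, minus strand: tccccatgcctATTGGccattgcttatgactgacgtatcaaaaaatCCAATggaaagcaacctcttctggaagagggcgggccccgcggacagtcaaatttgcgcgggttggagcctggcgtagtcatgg
CCNB2, chr15:59105026-59105155, plus strand: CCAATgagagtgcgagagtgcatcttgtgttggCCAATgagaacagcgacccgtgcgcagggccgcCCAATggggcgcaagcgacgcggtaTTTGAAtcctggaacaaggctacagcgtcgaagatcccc
PRC1, chr15:90994526-90994655, minus strand: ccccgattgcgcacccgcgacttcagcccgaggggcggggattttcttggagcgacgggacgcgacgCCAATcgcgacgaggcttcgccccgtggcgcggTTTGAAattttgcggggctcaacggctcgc
HMMR, chr5:163460512-163460641, plus strand: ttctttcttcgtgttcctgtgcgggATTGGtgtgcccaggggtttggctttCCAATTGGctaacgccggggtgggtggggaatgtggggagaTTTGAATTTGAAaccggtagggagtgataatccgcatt
CDC20, chr1:43358861-43358990, plus strand: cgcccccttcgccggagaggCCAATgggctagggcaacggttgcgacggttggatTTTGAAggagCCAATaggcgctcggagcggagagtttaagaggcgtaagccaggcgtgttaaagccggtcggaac

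CCNB2 has 3 CCAAT boxes in a row, each starting 33 bases after the one before, followed by TTTGAA starting 29 bases before the start. SPC25 has 2 CCAAT boxes 32 bases apart and a TTTGAA that spans the start. PRC1 has 1 CCAAT box and TTTGAA at 20 bases before the start. HMMR has TTTGAA in tandem, at 28 and 22 bases before the start. CDC20 has TTTGAA between 2 CCAAT boxes. SPC24 has CCAAT boxes and no match to the cell cycle homology region in this window, as searched.

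Over the full promoter windows of the table, 33 of the 40 members had an entry. AURKA, BIRC5, BUB3, FOXM1, TPX2, TTK and UBE2C had none, so the motif counts leave them out. Among them UBE2C was called higher in 5 lines and AURKA in 4. A match to the cell cycle homology region was present in 23 of the 33 (69.7%), against 46.1% of 89 promoters of other mitosis genes, 7.14% of 28 promoters of DNA replication genes and 16.6% of all 27305 promoters. CCAAT was present in 25 of 33 (75.8%; 35.7% of all), and both motifs in 19 (57.6%; 6.58% of all). CACGTG, an E-box to which MYC and MAX can bind, was present in 5 members (15.2%; 7.43% of all): CCNB1, PLK1, CENPE, CENPF and ANLN. The motif letters match by chance as well as at bound sites, and no binding was measured.

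**Figure D1:**
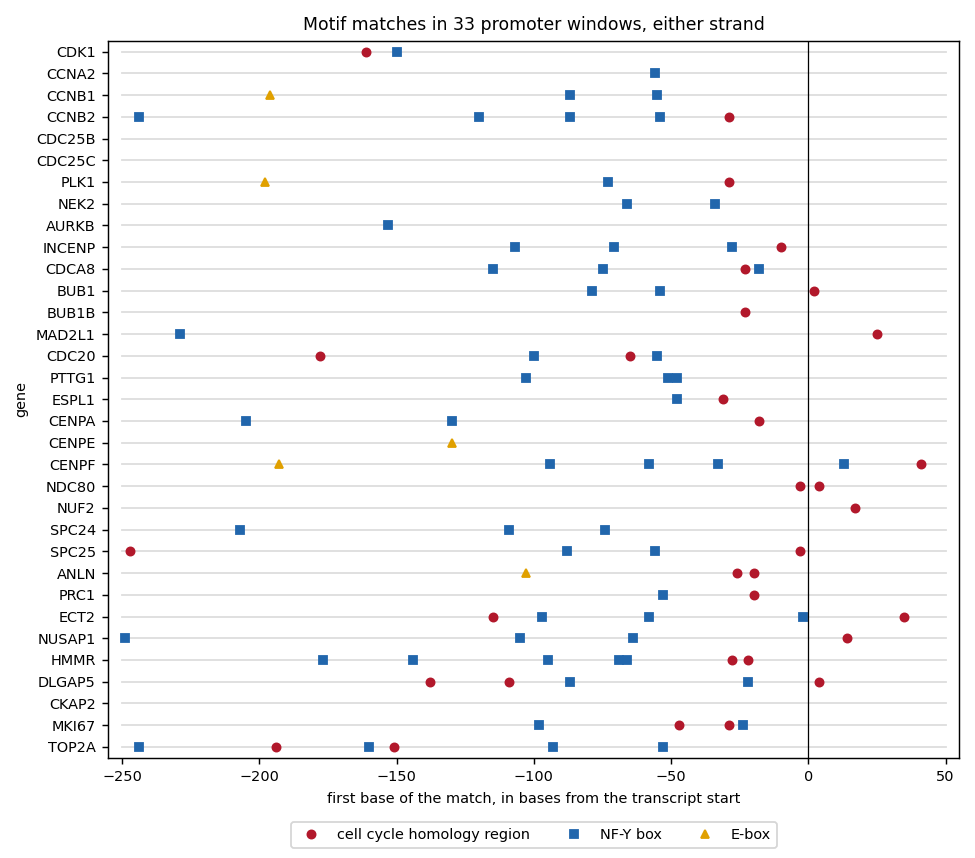
Positions of motif matches in the 33 promoter windows, in bases from the transcript start (x axis), for each member with a RefSeq entry (y axis, in the order of their roles). Circles are matches to the cell cycle homology region, squares to the NF-Y box and triangles to the E-box; 23, 25 and 5 promoters hold a match.

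Members were called in every line, mostly with small log2 fold changes, and in both directions in all but 1 line. Against 3xCTL, 16 of the 40 members were called in the libraries labelled 3xSR, 8 higher and 8 lower. The background was 29.0% of all 23160 genes tested, 15.3% higher and 13.7% lower. In MYC-OE 17 were called, 14 higher and 3 lower (background 35.3%, 18.0% higher and 17.3% lower). Against 1xCtrl, 11 were called in the libraries labelled SRSF2-OE, all 11 higher (background 23.5%, 11.6% higher and 11.9% lower). In SRSF3-OE 11 were called, 9 higher and 2 lower (background 29.2%, 15.0% higher and 14.1% lower). In SRSF7-OE 9 were called, 7 higher and 2 lower (background 17.3%, 9.03% higher and 8.26% lower). As shares of the members these were 40.0%, 42.5%, 27.5%, 27.5% and 22.5%. The total for SRSF2-OE, SRSF3-OE and SRSF7-OE was thus close to the background. With library sizes scaled by total counts alone the split was 12 higher and 6 lower in MYC-OE, 9 and 2 in SRSF2-OE, 4 and 5 in SRSF3-OE, and 7 and 5 in SRSF7-OE. With upper-quartile scaling it was 5 and 4 in SRSF7-OE. Total counts alone moved the median of all genes in SRSF3-OE from -0.03 to -0.14.

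The median log2 fold change of the 40 members was 0.04, 0.11, 0.05, 0.07 and 0.04 in the 5 contrasts, in the order above, against -0.00, -0.00, -0.01, -0.03 and -0.00 over all genes tested. Only SPC25 in MYC-OE passed a log2 fold change of 1. The summed level of the members, an index dominated by abundant genes such as MKI67, ranged from 6246 to 7574 CPM per library and overlapped between every line and its control except MYC-OE. It was 7185, 7143 and 7189 CPM in MYC-OE and 6591, 7093 and 6434 CPM in 3xCTL. Without 3xCTL replicate 2, 26 members were called in 3xSR (16 higher, 10 lower) and 25 in MYC-OE (20 higher, 5 lower). Without 3xCTL replicate 3 they were 13 (6 higher, 7 lower) and 16 (12 higher, 4 lower). Without 1xCtrl replicate 2, 16 were called for SRSF2-OE (12 higher, 4 lower), 11 for SRSF3-OE (9 higher, 2 lower) and 16 for SRSF7-OE (10 higher, 6 lower). Without 1xCtrl replicate 3 they were 9 (8 higher, 1 lower), 8 (6 higher, 2 lower) and 9 (6 higher, 3 lower). With the GC trend removed the counts were 25 (11 higher, 14 lower), 28 (22 higher, 6 lower), 16 (14 higher, 2 lower), 16 (12 higher, 4 lower) and 16 (10 higher, 6 lower). Over all genes the calls then rose too. They were 3984 higher and 3702 lower in 3xSR and 5127 and 4908 in MYC-OE, of 23160. They were 4077 and 4147 in SRSF2-OE, 4916 and 4383 in SRSF3-OE and 3668 and 3337 in SRSF7-OE, of 24362. The main fit called 3543 and 3184, 4173 and 4009, 2823 and 2910, 3666 and 3442, and 2201 and 2013 in the same order. Shares of all genes without these replicates are not given here.

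**Figure D2:**
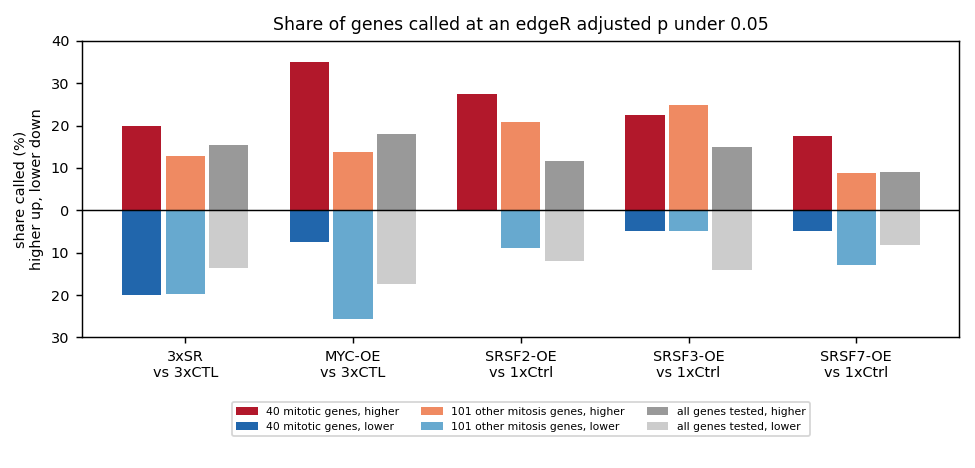
Share of genes called (y axis, percent; higher drawn upward, lower downward) in the 5 contrasts against a control, for the 40 members, 101 other mitosis genes and all genes tested. In MYC-OE 35.0% of the members and 13.9% of the other mitosis genes were called higher, against 18.0% of all genes.

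Over the 5 contrasts, 11 members were called in none: BUB3, CCNA2, CENPA, CENPE, CENPF, CKAP2, DLGAP5, INCENP, NEK2, TOP2A and TTK. Another 13 were called in 1, 7 in 2, 2 in 3 (CCNB1 and CDC20), 4 in 4 (AURKA, HMMR, PRC1 and SPC24) and 3 in all 5 (CCNB2, SPC25 and UBE2C). Of the 29 called at least once, 20 were called only higher, 7 only lower, and CCNB2 and PRC1 in both directions. Of 101 other mitosis genes, 28 were called in none and 14 in both directions. The share of all genes called as often, or in 1 direction only, is not given here. Whether the members were called unusually often was thus not tested. The contrasts of a table share their control libraries, so repeated calls within a table are not independent.

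**Figure D3:**
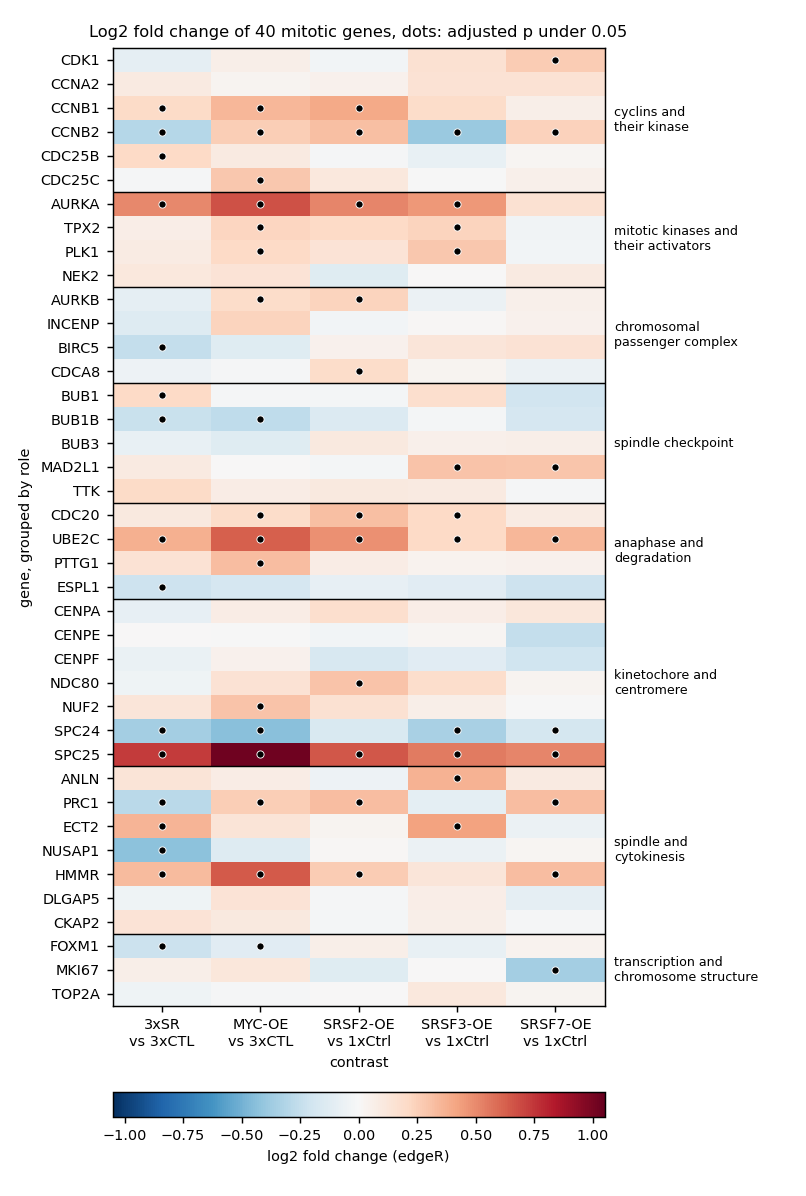
Log2 fold change (colour) of the 40 members (rows, grouped by role) in the 5 contrasts against a control (columns); a dot marks an adjusted p under 0.05. SPC25 and UBE2C are red with a dot in all 5 columns, SPC24 is blue in all 5 with a dot in 4, and CCNB2 and PRC1 change colour between lines.

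The calls were also counted by promoter motif, over the 33 members with a RefSeq entry. For the cell cycle homology region, 23 members had a match and 10 had none. In 3xSR, 4 of the 23 and 2 of the 10 were called higher, and 5 and 1 lower, with medians of -0.05 and 0.10 (all genes: 15.3% higher, 13.7% lower). In MYC-OE, 7 and 4 were higher and 1 and 1 lower, with medians of 0.12 and 0.12 (18.0% and 17.3%). In SRSF2-OE, 7 and 2 were higher and none lower, with medians of 0.01 and 0.01 (11.6% and 11.9%). In SRSF3-OE, 6 and 0 were higher and 1 and 1 lower, with medians of 0.07 and 0.01 (15.0% and 14.1%). In SRSF7-OE, 6 and 0 were higher and 1 and 1 lower, with medians of 0.03 and 0.05 (9.03% and 8.26%). The difference between members with and without a match was not tested. For CACGTG in MYC-OE, 2 of the 5 members with a match and 9 of the 28 without were higher, with medians of 0.08 and 0.13.

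The kinetochore genes held the member with the largest rise and the most widespread fall, and both belong to the NDC80 complex, the microtubule-binding unit formed by NDC80, NUF2, SPC24 and SPC25. SPC24 and SPC25 form the dimer at its inner end. SPC25 measured 8.13, 8.14 and 7.47 CPM in 3xCTL, 14.7, 12.01 and 12.8 in 3xSR and 16.8, 14.7 and 16.7 in MYC-OE. It measured 10.8, 9.46 and 11.4 CPM in 1xCtrl, 19.2, 16.2 and 14.5 in SRSF2-OE, 16.3, 14.6 and 15.3 in SRSF3-OE and 14.1, 15.6 and 15.5 in SRSF7-OE. Each of the 15 libraries of the 5 lines was above every control library of its own table. The log2 fold changes were 0.73 in 3xSR (SE 0.0899, edgeR adjusted p = 8.91e-05), 1.02 in MYC-OE (SE 0.0901, adjusted p = 4.17e-06), 0.65 in SRSF2-OE (SE 0.104, adjusted p = 0.000667), 0.55 in SRSF3-OE (SE 0.104, adjusted p = 0.00147) and 0.51 in SRSF7-OE (SE 0.104, adjusted p = 0.00509).

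SPC24 went the other way. It measured 48.7, 46.9 and 45.1 CPM in 3xCTL, 36.1, 36.8 and 37.3 in 3xSR and 34.4, 36.0 and 33.7 in MYC-OE, and 39.5, 37.4 and 38.0 CPM in 1xCtrl, 35.6, 33.1 and 34.3 in SRSF2-OE, 29.8, 32.3 and 28.6 in SRSF3-OE and 33.8, 33.4 and 33.7 in SRSF7-OE. All 15 libraries of the lines lay below their controls. It was called lower in 4 lines, with log2 fold changes of -0.35, -0.43, -0.34 and -0.19 for 3xSR, MYC-OE, SRSF3-OE and SRSF7-OE (edgeR adjusted p = 0.000297, 4.27e-05, 0.000819 and 0.0475). In SRSF2-OE it was -0.16 (adjusted p = 0.0773). Per kilobase of the longest annotated transcript, SPC24 stood at 20.3 CPM and SPC25 at 5.84 CPM in 3xCTL, and at 15.0 and 11.9 CPM in MYC-OE, so the levels of the partners were closer in MYC-OE. Several members share exon bases with a gene on the opposite strand, among them CCNA2, CDC25C, PLK1, MAD2L1, NUF2, ANLN, PRC1, HMMR and FOXM1. The strand setting of the counts is not given in the sources used here, so reads of such pairs may not be separated.

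Of the other 2 subunits, NUF2 rose in MYC-OE (0.30, edgeR adjusted p = 0.00744), from 56.6, 64.7 and 52.2 CPM in 3xCTL to 71.2, 70.0 and 72.0 CPM. NDC80 rose in SRSF2-OE (0.30, adjusted p = 0.0164), from 60.9, 53.4 and 66.4 CPM in 1xCtrl to 73.1, 79.8 and 69.4 CPM. The groups did not overlap in either. The remaining kinetochore and centromere members were CENPA, the centromeric histone H3, CENPE, a kinetochore motor, and CENPF. They were called in none of the 5 contrasts. Their log2 fold changes lay between -0.25 (CENPE in SRSF7-OE, edgeR adjusted p = 0.0539) and 0.17 (CENPA in SRSF2-OE, adjusted p = 0.0852). CENPA shares 138 of its 1983 exon bases on the same strand with SLC35F6, whose mean level was higher (118 against 52.9 CPM in 3xCTL). With both summed the log2 ratio went from 0.08 to -0.06 in MYC-OE and from 0.12 to -0.13 in SRSF7-OE. It kept its sign in the other lines, and the sums were not tested. The call of SPC24 in SRSF7-OE was lost with the replicate block, in a fit of only the groups compared and without 1xCtrl replicate 1 or SRSF7-OE replicate 2 or 3 (log2 fold changes from -0.21 to -0.19, adjusted p from 0.0567 to 0.102). The call of NDC80 in SRSF2-OE was lost in a fit of only the groups compared and without SRSF2-OE replicate 2 (log2 fold changes from 0.21 to 0.26, adjusted p from 0.0596 to 0.069).

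**Figure D4:**
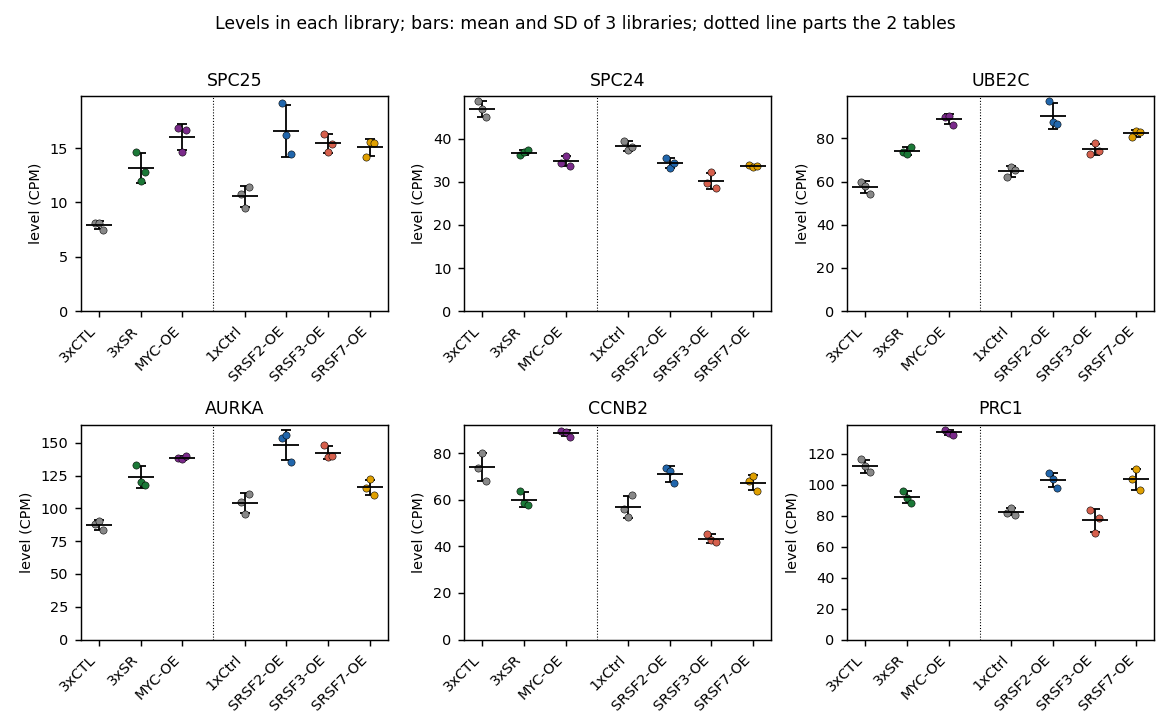
Level in each library (y axis, CPM, from 0) of SPC25, SPC24, UBE2C, AURKA, CCNB2 and PRC1 in the 7 groups (x axis); points are libraries, the bar and whiskers the mean and SD of 3, and the dotted line parts the 2 count tables. Every library of the 5 lines lies above its controls in SPC25 and below them in SPC24, while CCNB2 falls in 3xSR and SRSF3-OE and rises in the other 3 lines.

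Among the cyclins and their kinase, the 2 B-type cyclins, which activate CDK1 at mitotic entry, behaved differently. CCNB2 (cyclin B2) measured 73.4, 80.0 and 68.1 CPM in 3xCTL, 63.7, 58.4 and 57.9 in 3xSR and 89.3, 89.0 and 86.9 in MYC-OE. In the second table it measured 56.0, 52.6 and 62.0 CPM in 1xCtrl, 73.4, 72.3 and 67.1 in SRSF2-OE, 45.4, 42.6 and 42.0 in SRSF3-OE and 68.1, 70.0 and 63.8 in SRSF7-OE. It fell by 0.30 on the log2 scale in 3xSR (SE 0.0634, edgeR adjusted p = 0.0039) and by 0.39 in SRSF3-OE (SE 0.0697, adjusted p = 0.000914). It rose by 0.26 in MYC-OE (adjusted p = 0.00703), 0.32 in SRSF2-OE (adjusted p = 0.00494) and 0.24 in SRSF7-OE (adjusted p = 0.0296). Each group was separate from its control, with the low groups below and the high groups above.

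CCNB1 (cyclin B1) was called only higher. It measured 229, 249 and 212 CPM in 3xCTL, 279.5, 259 and 253 in 3xSR and 300.0, 289 and 292 in MYC-OE, and rose by 0.20 (edgeR adjusted p = 0.032) and 0.35 (adjusted p = 0.00093). In SRSF2-OE it measured 319, 299.9 and 289 CPM against 235, 207 and 247 CPM in 1xCtrl, a rise of 0.40 (adjusted p = 0.00234). In SRSF3-OE, where CCNB2 fell, CCNB1 had a log2 fold change of 0.19 (adjusted p = 0.0815), and in SRSF7-OE 0.06 (adjusted p = 0.63). CDK1 itself was called only in SRSF7-OE, where it measured 219, 243 and 243 CPM against 202, 173 and 210.0 CPM (0.27, adjusted p = 0.0271). Its log2 fold changes were -0.09 in 3xSR, 0.06 in MYC-OE, -0.03 in SRSF2-OE and 0.16 in SRSF3-OE. CDC25B and CDC25C, phosphatases that activate CDK1, were each called once: CDC25B in 3xSR (0.21, adjusted p = 0.0111) and CDC25C in MYC-OE (0.28, adjusted p = 0.0107). CCNA2 (cyclin A2) was called in no line. The call of CCNB2 in SRSF7-OE was lost with upper-quartile scaling, with the replicate block, in a fit of only the groups compared and without 1xCtrl replicate 1 or SRSF7-OE replicate 1 or 2 (log2 fold changes from 0.19 to 0.24, adjusted p from 0.0582 to 0.094). The call of CCNB1 in 3xSR was lost without a count filter, in a fit of only the groups compared and without 3xCTL replicate 1 or 3 or 3xSR replicate 1 or 2 (log2 fold changes from 0.14 to 0.20, adjusted p from 0.0576 to 0.128). The call of CDK1 in SRSF7-OE was lost with upper-quartile scaling, in a fit of only the groups compared and without SRSF7-OE replicate 2 or 3 (log2 fold changes from 0.22 to 0.27, adjusted p from 0.0619 to 0.0958). The call of CDC25B in 3xSR was lost without 3xSR replicate 2 or 3 (log2 fold changes from 0.18 to 0.19, adjusted p from 0.0568 to 0.0584). The call of CDC25C in MYC-OE was lost without MYC-OE replicate 3 (log2 fold change 0.23, adjusted p = 0.0549).

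Of the mitotic kinases, AURKA, the Aurora kinase of centrosomes and spindle poles, was called higher in 4 of the 5 lines. It measured 87.8, 90.6 and 83.2 CPM in 3xCTL, 133, 119.8 and 118 in 3xSR and 138, 137 and 139.7 in MYC-OE. In the second table it measured 105, 96.1 and 111 CPM in 1xCtrl, 154, 156 and 135 in SRSF2-OE, 148, 139 and 139.5 in SRSF3-OE and 116, 122 and 111 in SRSF7-OE. The SRSF7-OE libraries overlapped with 1xCtrl and the other 4 groups did not overlap with their controls. The rises were 0.50 in 3xSR (SE 0.0567, edgeR adjusted p = 4.41e-05), 0.67 in MYC-OE (SE 0.0567, adjusted p = 3.01e-06), 0.51 in SRSF2-OE (SE 0.0725, adjusted p = 0.000289) and 0.45 in SRSF3-OE (SE 0.0724, adjusted p = 0.000425). In SRSF7-OE it was 0.16 (adjusted p = 0.157). All 4 calls held in each of the 16 alternatives run for them.

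TPX2, which activates AURKA on the spindle, had the highest level per kilobase of the members in all 7 groups, and rose in MYC-OE (0.23, edgeR adjusted p = 0.00873) and SRSF3-OE (0.23, adjusted p = 0.0346). PLK1, a kinase with roles from mitotic entry to cytokinesis, was called in the same 2 lines (0.21, adjusted p = 0.0392, and 0.28, adjusted p = 0.0188). It measured 50.7, 40.5 and 45.8 CPM in 3xCTL and 53.1, 51.2 and 54.0 in MYC-OE, and 40.6, 47.8 and 39.0 in 1xCtrl and 52.2, 50.6 and 52.3 in SRSF3-OE. Its log2 fold change was 0.09 in 3xSR, 0.14 in SRSF2-OE and -0.03 in SRSF7-OE. NEK2, a centrosome kinase, was called in none. The call of TPX2 in SRSF3-OE was lost with upper-quartile scaling, when scaled by total counts, without a count filter, with the replicate block, in a fit of only the groups compared and without 1xCtrl replicate 1 or 2 or SRSF3-OE replicate 1 or 3 (log2 fold changes from 0.12 to 0.23, adjusted p from 0.0598 to 0.212). The call of PLK1 in MYC-OE was lost when scaled by total counts, without a count filter, in a fit of only the groups compared and without 3xCTL replicate 2 or 3 or MYC-OE replicate 1, 2 or 3 (log2 fold changes from 0.13 to 0.23, adjusted p from 0.0509 to 0.117). The call of PLK1 in SRSF3-OE was lost when scaled by total counts, without a count filter, in a fit of only the groups compared and without 1xCtrl replicate 1 or 3 or SRSF3-OE replicate 1, 2 or 3 (log2 fold changes from 0.17 to 0.25, adjusted p from 0.124 to 0.269).

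The chromosomal passenger complex corrects kinetochore attachments through its kinase AURKB, held by the scaffold INCENP with BIRC5 (survivin) and CDCA8 (borealin). AURKB rose in MYC-OE, from 149, 132 and 141 CPM in 3xCTL to 161, 157 and 164 CPM (0.19, edgeR adjusted p = 0.0212), and in SRSF2-OE, from 135, 159.9 and 134 CPM in 1xCtrl to 171, 165 and 170.1 CPM (0.24, adjusted p = 0.0244). CDCA8 rose in SRSF2-OE only (0.20, adjusted p = 0.0391). BIRC5 fell in 3xSR, from 171, 154 and 155 CPM in 3xCTL to 136, 135 and 132 CPM (-0.25, adjusted p = 0.00264), and was called in no single line, where its log2 fold changes were 0.04, 0.12 and 0.15. INCENP was called in none, and its 1xCtrl libraries measured 44.2, 69.9 and 39.9 CPM, the widest spread of any member in that group. The call of AURKB in MYC-OE was lost when scaled by total counts, in a fit of only the groups compared and without 3xCTL replicate 3 or MYC-OE replicate 1 or 3 (log2 fold changes from 0.16 to 0.20, adjusted p from 0.0501 to 0.0736). The call of AURKB in SRSF2-OE was lost when scaled by total counts, without a count filter, in a fit of only the groups compared and without 1xCtrl replicate 1 or 3 or SRSF2-OE replicate 1, 2 or 3 (log2 fold changes from 0.13 to 0.21, adjusted p from 0.111 to 0.36). The call of CDCA8 in SRSF2-OE was lost with upper-quartile scaling, when scaled by total counts, with the replicate block, in a fit of only the groups compared and without 1xCtrl replicate 1 or 2 or SRSF2-OE replicate 1 or 2 (log2 fold changes from 0.13 to 0.20, adjusted p from 0.0553 to 0.118).

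Of the 5 spindle checkpoint genes, MAD2L1, BUB1B and BUB1 were called in some line. The share of all genes called in any line is not given here. MAD2L1, which binds and holds back CDC20, rose in 2 single lines. It measured 73.0, 62.9 and 74.5 CPM in 1xCtrl, 90.9, 81.2 and 86.7 in SRSF3-OE and 81.3, 86.2 and 90.3 in SRSF7-OE, so both lines lay wholly above the control (0.30, edgeR adjusted p = 0.00943, and 0.29, adjusted p = 0.018). Its log2 fold change was 0.09 in 3xSR, 0.00 in MYC-OE and -0.02 in SRSF2-OE. BUB1B (BUBR1) measured 233, 260.4 and 217 CPM in 3xCTL, 211, 196 and 199 in 3xSR and 198, 199.6 and 193 in MYC-OE, and fell in both (-0.23, adjusted p = 0.018, and -0.27, adjusted p = 0.00637). BUB1, a checkpoint kinase, measured 152, 142 and 145 CPM in 3xSR against 123, 140.2 and 116 CPM (0.21, adjusted p = 0.0363). In the other 4 lines it was called in none, at 0.18 in SRSF3-OE, -0.01 in MYC-OE, -0.02 in SRSF2-OE and -0.20 in SRSF7-OE. BUB3 and TTK (MPS1) were called in no line. BUB1B shares 457 of its 4476 exon bases with the readthrough gene BUB1B-PAK6, which stayed at or below 0.0457 CPM in every library. The call of MAD2L1 in SRSF3-OE was lost when scaled by total counts and without SRSF3-OE replicate 1 (log2 fold changes from 0.19 to 0.21, adjusted p from 0.0613 to 0.0668). The call of MAD2L1 in SRSF7-OE was lost in a fit of only the groups compared and without SRSF7-OE replicate 3 (log2 fold changes from 0.24 to 0.29, adjusted p from 0.0682 to 0.0803). The call of BUB1B in 3xSR was lost without 3xSR replicate 3 (log2 fold change -0.22, adjusted p = 0.0719). The call of BUB1 in 3xSR was lost without a count filter, in a fit of only the groups compared and without 3xCTL replicate 1 or 3 or 3xSR replicate 1, 2 or 3 (log2 fold changes from 0.15 to 0.22, adjusted p from 0.055 to 0.138).

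In the anaphase group, UBE2C, the ubiquitin-conjugating enzyme of the anaphase-promoting complex, was called higher in all 5 lines. It measured 59.9, 58.0 and 54.2 CPM in 3xCTL, 73.6, 72.8 and 76.0 in 3xSR and 90.0, 90.3 and 86.2 in MYC-OE. In the second table it measured 61.9, 66.8 and 65.5 CPM in 1xCtrl, 97.3, 87.4 and 86.6 in SRSF2-OE, 72.8, 77.8 and 74.3 in SRSF3-OE and 80.4, 83.4 and 83.0 in SRSF7-OE. All 15 libraries of the lines were above their controls, by log2 fold changes of 0.37, 0.63, 0.48, 0.21 and 0.35 in 3xSR, MYC-OE, SRSF2-OE, SRSF3-OE and SRSF7-OE (edgeR adjusted p = 0.000223, 2.16e-06, 0.000109, 0.0171 and 0.00213). The call of UBE2C in SRSF3-OE was lost with upper-quartile scaling, when scaled by total counts, without a count filter, in a fit of only the groups compared and without 1xCtrl replicate 1 or 3 or SRSF3-OE replicate 1, 2 or 3 (log2 fold changes from 0.10 to 0.18, adjusted p from 0.0965 to 0.257).

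CDC20 measured 229, 213 and 213 CPM in 3xCTL and 254, 247 and 246 in MYC-OE (0.19, edgeR adjusted p = 0.00835). It measured 188, 204 and 180.1 CPM in 1xCtrl, 258, 230.4 and 222 in SRSF2-OE (0.31, adjusted p = 0.00623) and 227, 216 and 219 in SRSF3-OE (0.21, adjusted p = 0.0392). These 3 groups lay above their controls without overlap. In 3xSR and SRSF7-OE, which overlapped with their controls, it was 0.10 and 0.08. PTTG1 (securin), the inhibitor of separase, rose in MYC-OE (0.32, adjusted p = 0.00184), and ESPL1 (separase), the protease that cleaves cohesin, fell in 3xSR (-0.22, adjusted p = 0.026). The call of CDC20 in SRSF2-OE was lost in a fit of only the groups compared and without 1xCtrl replicate 1 or 3 or SRSF2-OE replicate 1 (log2 fold changes from 0.20 to 0.27, adjusted p from 0.065 to 0.112). The call of CDC20 in SRSF3-OE was lost with RLE scaling, with upper-quartile scaling, when scaled by total counts, without a count filter, with at least 10 counts in every library, by DESeq2, in a fit of only the groups compared and without 1xCtrl replicate 1 or 3 or SRSF3-OE replicate 1, 2 or 3 (log2 fold changes from 0.10 to 0.21, adjusted p from 0.0501 to 0.337). The call of ESPL1 in 3xSR was lost with the GC trend removed, in a fit of only the groups compared and without 3xCTL replicate 1 or 3 or 3xSR replicate 1 or 3 (log2 fold changes from -0.22 to -0.07, adjusted p from 0.0546 to 0.174).

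Among the spindle and cytokinesis genes, PRC1, which bundles the antiparallel microtubules of the central spindle, measured 116, 112 and 108 CPM in 3xCTL, 96.1, 91.7 and 88.0 in 3xSR and 135, 134 and 132 in MYC-OE. It fell by 0.29 on the log2 scale in 3xSR (SE 0.0503, edgeR adjusted p = 0.0012) and rose by 0.26 in MYC-OE (SE 0.0502, adjusted p = 0.00183). In the second table it measured 81.8, 85.0 and 80.6 CPM in 1xCtrl, 107, 104 and 98.2 in SRSF2-OE, 83.8, 68.9 and 78.3 in SRSF3-OE and 104, 110.3 and 96.4 in SRSF7-OE. It rose by 0.32 in SRSF2-OE (adjusted p = 0.0073) and 0.33 in SRSF7-OE (adjusted p = 0.0101), and SRSF3-OE overlapped with the control (-0.10, adjusted p = 0.371). Of the 5525 exon bases of PRC1 in GENCODE 29, 3181 are shared on the same strand with AC068831.7, so how reads were split between the 2 genes is uncertain. With their counts summed, the log2 ratio to the control was -0.29 in 3xSR, -0.24 in SRSF3-OE, 0.12 in MYC-OE, 0.20 in SRSF2-OE and 0.10 in SRSF7-OE, values with no test. The call of PRC1 in SRSF2-OE was lost without 1xCtrl replicate 1 or 3 or SRSF2-OE replicate 1 or 2 (log2 fold changes from 0.25 to 0.28, adjusted p from 0.0567 to 0.0854). The call of PRC1 in SRSF7-OE was lost without 1xCtrl replicate 1 or 3 or SRSF7-OE replicate 1 or 2 (log2 fold changes from 0.27 to 0.30, adjusted p from 0.0587 to 0.0811).

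HMMR, a spindle and hyaluronan-binding protein, rose in 4 lines. It measured 46.5, 53.1 and 42.6 CPM in 3xCTL, 63.3, 58.0 and 58.2 in 3xSR and 74.3, 76.9 and 71.0 in MYC-OE, and 57.6, 51.0 and 59.8 in 1xCtrl, 70.0, 69.7 and 62.3 in SRSF2-OE, 65.4, 57.5 and 61.5 in SRSF3-OE and 69.9, 72.8 and 68.5 in SRSF7-OE. SRSF3-OE overlapped with its control and the other lines did not. The rises were 0.34, 0.64, 0.26 and 0.33 (edgeR adjusted p = 0.00543, 4.13e-05, 0.0207 and 0.00919) in 3xSR, MYC-OE, SRSF2-OE and SRSF7-OE. The call of HMMR in SRSF2-OE was lost in a fit of only the groups compared and without 1xCtrl replicate 1 or SRSF2-OE replicate 1 or 2 (log2 fold changes from 0.19 to 0.23, adjusted p from 0.0593 to 0.0866).

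ECT2, the exchange factor that activates RhoA at the cleavage furrow, rose in 2 lines: from 115, 128 and 106 CPM in 3xCTL to 158, 146 and 143 CPM in 3xSR (0.36, edgeR adjusted p = 0.00209), and from 155, 128 and 158 CPM in 1xCtrl to 207, 185 and 199 CPM in SRSF3-OE (0.42, adjusted p = 0.00167). ANLN (anillin), a scaffold of the same furrow, rose in SRSF3-OE, to 612, 523 and 559 CPM against 420.4, 407 and 486 CPM (0.37, adjusted p = 0.00259), and was 0.14 in 3xSR (adjusted p = 0.113). NUSAP1, a microtubule-stabilizing protein, had the largest fall of any member in 3xSR, from 225, 251 and 209 CPM in 3xCTL to 162, 180.0 and 167 CPM (-0.43, SE 0.0681, adjusted p = 0.00059). It shares 1787 of its 2875 exon bases on the same strand with AC087721.2, whose level ran from 0.832 to 35.0 CPM in the 3xSR libraries and from 0.601 to 2.55 CPM in 3xCTL. With both summed the log2 ratio was -0.29. DLGAP5 and CKAP2, both spindle proteins, were called in none.

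FOXM1, MKI67 and TOP2A are often used to gauge proliferation. FOXM1, the transcription factor of the G2 and M phase program, measured 183, 183 and 184 CPM in 3xCTL, 154, 160.4 and 156 in 3xSR and 166, 170.1 and 169 in MYC-OE. It fell in 3xSR (-0.23, SE 0.0423, edgeR adjusted p = 0.00181) and in MYC-OE (-0.12, SE 0.0423, adjusted p = 0.0435), and was called in no single line. MKI67, the Ki-67 antigen and the member with the highest CPM, not scaled for length, in all 7 groups, fell in SRSF7-OE, to 1007, 1014 and 821 CPM against 1236, 1129 and 1266 CPM (-0.35, adjusted p = 0.0227). In the other lines it was 0.07, 0.12, -0.13 and 0.00, called in none. TOP2A, the topoisomerase that untangles sister chromatids, was at -0.05, -0.01, 0.00, 0.11 and 0.03 and was called in no line. The call of FOXM1 in MYC-OE was lost with RLE scaling, with upper-quartile scaling, without a count filter, with the replicate block, in a fit of only the groups compared and without 3xCTL replicate 1 or 3 or MYC-OE replicate 1, 2 or 3 (log2 fold changes from -0.13 to -0.11, adjusted p from 0.0525 to 0.149). The call of MKI67 in SRSF7-OE was lost in a fit of only the groups compared and without SRSF7-OE replicate 3 (log2 fold changes from -0.36 to -0.28, adjusted p from 0.0535 to 0.0676).

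The lines were then compared with each other. MYC-OE against 3xSR called 14 members, 12 higher and 2 lower in MYC-OE (background 34.9%, 17.3% higher and 17.6% lower). CCNB2 and PRC1 led, at 0.56 (SE 0.0635, edgeR adjusted p = 5.58e-05) and 0.54 (SE 0.0504, adjusted p = 1.44e-05), followed by INCENP at 0.37 (adjusted p = 0.00867). HMMR, CDC25C, NUSAP1, SPC25, AURKB, UBE2C, DLGAP5, CENPA and AURKA were also higher in MYC-OE, by 0.16 to 0.31. Summed with AC087721.2, NUSAP1 had log2 ratios to 3xCTL of -0.29 in 3xSR and -0.14 in MYC-OE, against -0.43 and -0.14 alone. Summed with SLC35F6, CENPA was at -0.15 and -0.06, against -0.09 and 0.08 alone. Neither sum was tested. BUB1 and ECT2 were higher in 3xSR (-0.23, adjusted p = 0.0231, and -0.22, adjusted p = 0.0265). CDK1, CCNB1, PLK1, MAD2L1, CDC20, FOXM1, MKI67 and TOP2A were called in neither direction, with log2 fold changes between -0.09 (MAD2L1) and 0.16 (CDK1). In a fit of only these 2 groups 24 members were called, and with 1 library left out 8 to 11. With the GC trend removed 28 were called, 24 higher and 4 lower. The 14 members were 35.0% of the 40, near the background.

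**Figure D5:**
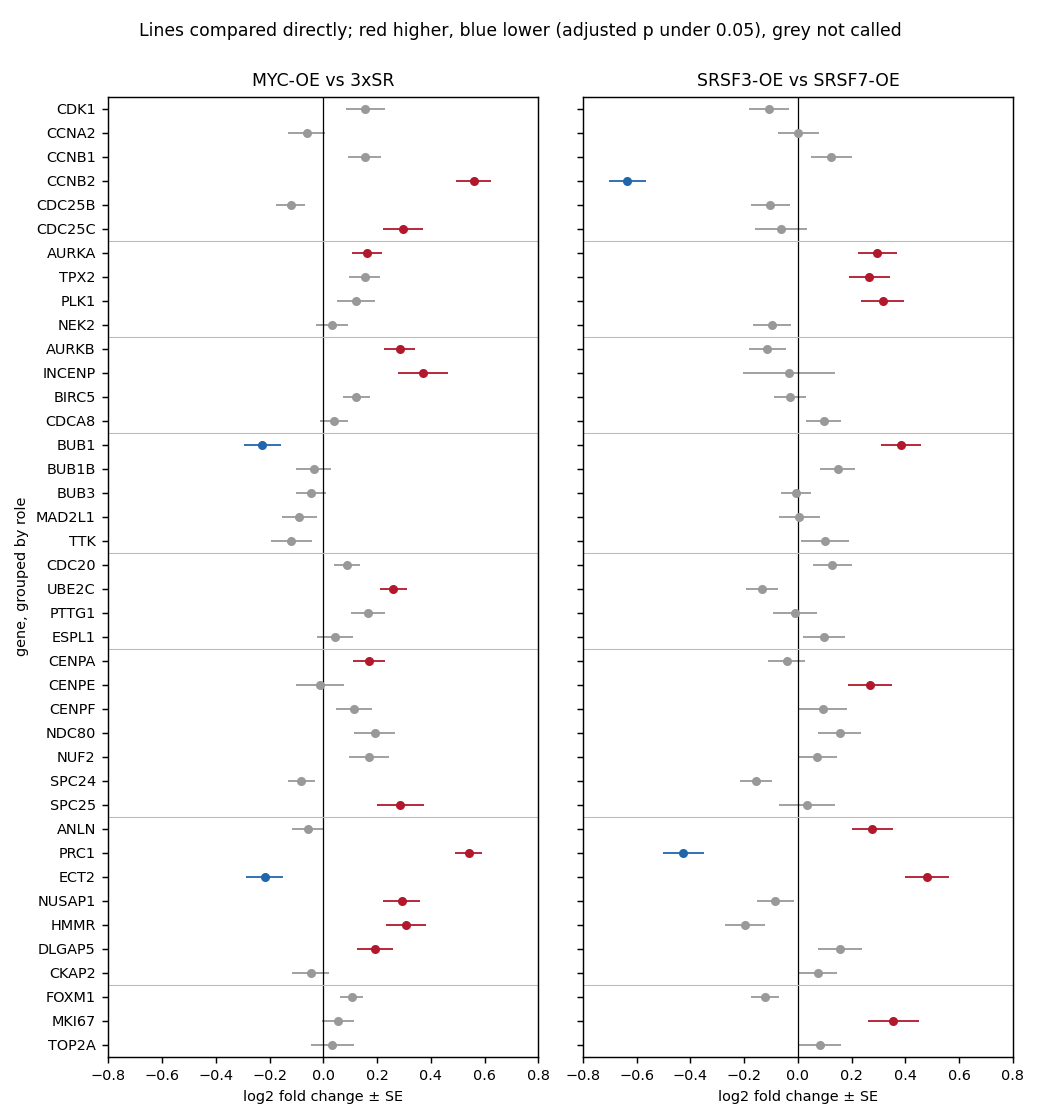
Log2 fold change with its SE (x axis) of each member (y axis) in MYC-OE against 3xSR (left) and SRSF3-OE against SRSF7-OE (right); red points are called higher and blue lower in the first named line. CCNB2 and PRC1 are the 2 largest differences at left, both higher in MYC-OE, and both are lower in SRSF3-OE than in SRSF7-OE at right.

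Among the single lines, SRSF3-OE against SRSF7-OE called 10 members, 8 higher and 2 lower (background 35.2%, 17.8% higher and 17.3% lower). CCNB2 and PRC1 were lower in SRSF3-OE (-0.63, edgeR adjusted p = 1.58e-05, and -0.43, adjusted p = 0.000677). ECT2 (0.48, adjusted p = 0.000482), BUB1 (0.38, adjusted p = 0.0013) and MKI67 (0.35, adjusted p = 0.0109) led the 8 that were higher, with PLK1 (0.31), AURKA (0.29), ANLN, CENPE and TPX2. CDK1, CCNB1, MAD2L1, CDC20, FOXM1 and TOP2A were called in neither direction (-0.11, 0.12, 0.01, 0.13, -0.12 and 0.08). With total counts alone the split turned to 4 higher and 10 lower, and with the GC trend removed 17 were called (10 higher, 7 lower).

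SRSF2-OE against SRSF3-OE called 8 members, 5 higher and 3 lower (background 26.8%, 12.6% higher and 14.1% lower). CCNB2 was higher in SRSF2-OE by 0.71 (SE 0.0699, edgeR adjusted p = 1.2e-05), the largest difference of any member between lines of this table, and PRC1 by 0.42 (adjusted p = 0.00118), with AURKB, UBE2C and SPC24 also higher. ANLN (-0.42), ECT2 (-0.39) and MAD2L1 (-0.32) were lower in SRSF2-OE. CDK1 (-0.19), CCNB1 (0.21), PLK1 (-0.14), AURKA (0.06), BUB1 (-0.20), CDC20 (0.10), FOXM1 (0.14), MKI67 (-0.13) and TOP2A (-0.11) were called in neither direction. With the GC trend removed 20 were called (12 higher, 8 lower).

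SRSF2-OE against SRSF7-OE called 9, 6 higher and 3 lower (background 24.2%, 11.5% higher and 12.8% lower). AURKA (0.35), CCNB1 (0.33) and NDC80 (0.27) led the 6 higher, with CDCA8, TPX2 and CDC20 (0.23), a split that became 4 higher and 4 lower with total counts alone. MAD2L1 (-0.32), CDK1 (-0.30) and NEK2 (-0.23) were lower. CCNB2 and PRC1 were called in neither direction in that pair (0.08, adjusted p = 0.482, and -0.00, adjusted p = 0.979), nor were PLK1 (0.17), BUB1 (0.18), FOXM1 (0.02), MKI67 (0.22) and TOP2A (-0.02). With the GC trend removed 18 were called (13 higher, 5 lower).

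In a joint fit of all 21 libraries, over 25013 genes, the effect of 3xSR against its control was set against that of each line labelled with 1 factor. From SRSF2-OE it differed in 10 members, 1 higher and 9 lower in 3xSR (background 21.9%, 13.3% higher and 8.53% lower). From SRSF7-OE it differed in 10, 4 higher and 6 lower (background 24.6%, 13.6% higher and 10.9% lower). From SRSF3-OE it differed in 3, 1 higher and 2 lower (background 17.8%, 10.8% higher and 7.02% lower), the fewest of the 3. The 3 were CDC25B (0.31, edgeR adjusted p = 0.027), BIRC5 (-0.36, adjusted p = 0.0026) and NUSAP1 (-0.35, adjusted p = 0.014). Summed with AC087721.2, NUSAP1 was at -0.29 in 3xSR and -0.06 in SRSF3-OE, which are closer than without it (-0.43 and -0.06). With the GC trend removed 11 members differed from SRSF3-OE, 18 from SRSF2-OE and 20 from SRSF7-OE. With total counts alone the split was 3 higher and 7 lower against SRSF2-OE, and 3 and 2 against SRSF3-OE. Whether the 3 counts differ from one another was not tested.

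CCNB2 and PRC1 set 3xSR apart from SRSF2-OE, by -0.61 (edgeR adjusted p = 6.96e-05) and -0.60 (adjusted p = 0.000118), and from SRSF7-OE, by -0.54 (adjusted p = 0.00024) and -0.61 (adjusted p = 9.86e-05). From SRSF3-OE they were not called apart, at 0.11 (SE 0.0923, adjusted p = 0.5) and -0.17 (SE 0.0954, adjusted p = 0.241). NUSAP1 and BIRC5 differed from all 3 single lines, at -0.43 and -0.29 from SRSF2-OE and -0.44 and -0.40 from SRSF7-OE. Summed with AC087721.2, NUSAP1 had log2 ratios to the control of -0.29 in 3xSR, 0.01 in SRSF2-OE and 0.03 in SRSF7-OE. Without it they were -0.43, 0.01 and 0.02, so the summed values were closer, with no test. FOXM1 differed from SRSF2-OE (-0.28, adjusted p = 0.00152) and SRSF7-OE (-0.26, adjusted p = 0.00245). ECT2 was higher in 3xSR than in SRSF2-OE (0.34) and SRSF7-OE (0.42), and AURKA (0.35), BUB1 (0.42) and MKI67 (0.42) were higher than in SRSF7-OE. CDK1 was -0.05, -0.24 and -0.36 against the 3 lines in order, called lower against SRSF7-OE only. CCNB1 (-0.19, 0.02 and 0.14), PLK1 (-0.04, -0.18 and 0.12), MAD2L1 (0.12, -0.20 and -0.20), CDC20 (-0.20, -0.09 and 0.03) and TOP2A (-0.04, -0.15 and -0.07) were called in none. The tables have separate controls, so a difference between the tables that does not cancel in them cannot be told apart from these differences.

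Beyond the 40 members, 101 other mitosis genes, covering condensin, cohesin, the anaphase-promoting complex, other kinetochore proteins, spindle, cytokinesis and regulators, were called 33 times in 3xSR (13 higher, 20 lower), 40 in MYC-OE (14 higher, 26 lower), 30 in SRSF2-OE (21 higher, 9 lower), 30 in SRSF3-OE (25 higher, 5 lower) and 22 in SRSF7-OE (9 higher, 13 lower). These were 32.7%, 39.6%, 29.7%, 29.7% and 21.8% of the list, against the 29.0%, 35.3%, 23.5%, 29.2% and 17.3% of all genes. In MYC-OE the members were thus mostly higher and the other mitosis genes mostly lower, with a median log2 fold change of 0.11 against -0.06, a difference that was not tested. The largest falls there were in ARPP19 (-0.98, edgeR adjusted p = 1.31e-06), an inhibitor of the phosphatase that opposes CDK1, and KNL1 (-0.71, adjusted p = 5.27e-06), the kinetochore scaffold that recruits BUB1. The largest rises were in FAM83D (0.54), a spindle protein, and MYBL2 (0.51), which encodes B-MYB. KNL1 was also lower in 3xSR (-0.35), SRSF2-OE (-0.44) and SRSF7-OE (-0.54) and was -0.02 in SRSF3-OE.

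FAM83D was the only one of the 101 called higher in all 5 lines (0.37, 0.54, 0.36, 0.44 and 0.20), and E2F2, an E2F transcription factor, the only one called lower in all 5 (-0.33, -0.42, -0.22, -0.46 and -0.20). The ranks that follow are among the called genes of the list in each line. In 3xSR, CENPM (-0.49) and ARPP19 (-0.49) fell most and STAG1, a cohesin subunit, rose most (0.44), ahead of FAM83D. In SRSF3-OE the cohesin genes STAG1 (0.87, edgeR adjusted p = 8.36e-06) and STAG2 (0.52, adjusted p = 0.000575) rose most. E2F1 fell there (-0.41). In SRSF2-OE, STAG1 (0.51) and SPDL1, a kinetochore adaptor of dynein (0.40), rose most and ARPP19 (-0.37) fell. In SRSF7-OE, CKS2 (0.45), a CDK-binding protein, and ENSA (0.39), a paralog of ARPP19, rose most, and ASPM (-0.47), a spindle pole protein, fell.

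For comparison, 32 genes of DNA replication, which act in S phase, were called 11 times in 3xSR (1 higher, 10 lower), 9 in MYC-OE (2 higher, 7 lower), 9 in SRSF2-OE (8 higher, 1 lower), 11 in SRSF3-OE (9 higher, 2 lower) and 12 in SRSF7-OE (8 higher, 4 lower). These were 34.4%, 28.1%, 28.1%, 34.4% and 37.5% of the list, against the same shares of all genes as above. Their median log2 fold changes were -0.13, -0.03, 0.06, 0.11 and 0.10, beside 0.04, 0.11, 0.05, 0.07 and 0.04 for the 40 members. The difference between the 2 lists was not tested.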

How the data were processed

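Gene counts from RNA-seq of 21 libraries were used in 2 tables, 9 and 12 libraries, as deposited by the authors. Libraries were stranded and polyA-selected and read as 150 base pairs from both ends, per the labels' protocols. Per the submitters' processing notes, Trimmomatic 0.39, STAR, StringTie 2.1.3b and the build GRCh38.p13 were used. The counting method, strand setting and annotation are not given in the sources used here.

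The members and the other gene lists were chosen with earlier results of these data known. All groups of a table entered 1 fit with edgeR 4.0.16 (R 4.3.3): filterByExpr (minimum count 10, minimum total 15), TMM scaling, robust quasi-likelihood tests, and Benjamini-Hochberg adjustment over all genes tested, 23160 in the first table and 24362 in the second. A joint fit of 25013 genes gave differences between effects. Levels per kilobase use the longest GENCODE 29 transcript. The fits were tested on simulated counts. Alternatives were RLE, upper-quartile and total-count scaling, other filters, DESeq2 1.42.0, limma-voom (limma 3.58.1), the replicate number as a block, GC trends removed over 50 bins, only the groups compared, and each replicate left out. Summing overlapping genes was added after seeing the data.

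Named in every contrast were CDK1, CCNB1, PLK1, AURKA, BUB1, MAD2L1, CDC20, FOXM1, MKI67 and TOP2A. Others were named by rank: the 5 highest and 5 lowest called members against each control, the 3 highest and 3 lowest in other contrasts, those called one way in 4 or 5 contrasts, and 2 at each end of the wider list. Members outside this rule were chosen after their values were seen. Promoter sequences are from RefSeq on GRCh38.p14, where 33 of 40 members had an entry.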

Additional observations from a re-analysis of the deposited data

Results flagged for a closer look

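CCNB2 and PRC1 were called in opposite directions against their own controls in pairs of lines, and the difference between the lines was itself tested. CCNB2 was higher in MYC-OE than in 3xSR by 0.56 on the log2 scale, and PRC1 by 0.54. CCNB2 was higher in SRSF2-OE than in SRSF3-OE by 0.71 and differed by -0.63 between SRSF3-OE and SRSF7-OE. The effect of 3xSR less that of SRSF2-OE was -0.61 for CCNB2 and -0.60 for PRC1. The effect of 3xSR less that of SRSF7-OE was -0.54 for CCNB2 and -0.61 for PRC1. All 8 differences passed an adjusted p of 0.05 by edgeR, but passing it was part of the rule that picked them. It therefore adds no further support. PRC1 shares 3181 of its 5525 exon bases with AC068831.7. With their counts summed, the log2 ratio to the control was -0.29 in 3xSR, 0.12 in MYC-OE, 0.20 in SRSF2-OE and 0.10 in SRSF7-OE. For PRC1 alone these were -0.29, 0.26, 0.32 and 0.33. The summed values thus lay closer together between 3xSR and the other 3 lines, with no test.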

How the results depend on the processing

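Of 64 called values of members against a control, 43 held under the 10 changed settings, 38 in every fit that left out a replicate and 38 under all alternatives run; the calls that were lost stand beside their genes. With 2 members that were not called, an alternative made a call of the opposite sign: CENPE in 3xSR was -0.15 with the GC trend removed, and INCENP in SRSF2-OE ranged from -0.23 without 1xCtrl replicate 3 to 0.25 without 1xCtrl replicate 2. With the GC trend removed, called members rose to 25 in 3xSR, 28 in MYC-OE, 16 in SRSF7-OE, 28 in MYC-OE against 3xSR, 20 in SRSF2-OE against SRSF3-OE, 18 in SRSF2-OE against SRSF7-OE, 17 in SRSF3-OE against SRSF7-OE, and 18, 11 and 20 for the effect of 3xSR less those of SRSF2-OE, SRSF3-OE and SRSF7-OE. Calls over all genes against the controls rose as well, as given above, and are not given here for the other contrasts. In fits of only the groups compared, which hold fewer libraries, called members were 7, 7 and 4 in SRSF2-OE, SRSF3-OE and SRSF7-OE. They were 24 in MYC-OE against 3xSR, 13 in SRSF2-OE against SRSF3-OE and 15 in SRSF2-OE against SRSF7-OE. Calls over all genes in these single lines fell too. They were 1700 higher and 2597 lower of 22743 in SRSF2-OE, and 2218 and 2620 of 22536 in SRSF3-OE. In SRSF7-OE they were 1141 and 1110 of 23067. SRSF3-OE had 7 called members with no filter, and the effect of 3xSR less that of SRSF3-OE had 5 with total counts alone. The cause was not tested. Total counts alone took the share of all calls that were higher from 49.2% to 36.7% in SRSF2-OE and from 51.6% to 32.1% in SRSF3-OE, and upper-quartile scaling took the latter to 38.6%.

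With 1 replicate left out, called members ranged from 12 to 26 in 3xSR, 13 to 25 in MYC-OE, 7 to 16 in SRSF2-OE, 7 to 11 in SRSF3-OE and 5 to 16 in SRSF7-OE. The ranges were 8 to 11 for MYC-OE against 3xSR, 6 to 10 for SRSF2-OE against SRSF3-OE, 5 to 9 for SRSF2-OE against SRSF7-OE and 6 to 11 for SRSF3-OE against SRSF7-OE. For the effect of 3xSR less those of SRSF2-OE, SRSF3-OE and SRSF7-OE they were 5 to 14, 2 to 5 and 9 to 14. Samples of the same replicate number did not deviate together (mean correlation over pairs from -0.142 to 0.0327 by contrast). The main fits did not pair them. This check cannot tell whether such samples were prepared together. With the replicate block, 16, 16, 10, 10 and 7 members were called against the controls. Between lines 11, 7, 6 and 10 were called, and 8, 3 and 10 in the joint fit. Calls over all genes fell too. They were 3332 higher and 2813 lower in 3xSR and 3943 and 3824 in MYC-OE, of 23160. They were 2415 and 2519 in SRSF2-OE, 3292 and 3051 in SRSF3-OE and 1815 and 1547 in SRSF7-OE, of 24362. Those for the other contrasts and for fits without a replicate are not given here.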
